A study of Anguilla anguilla with 12 samples.

Results

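A genome can hold the same mature microRNA (miRNA) sequence in several hairpin precursors. Described here are mature sequences of the European eel (Anguilla anguilla) liver that were listed at several predicted precursors and for which no zebrafish miRNA with the same seed was listed. The seed is the stretch from base 2 to base 8, with base 1 at the 5′ end. They were chosen from a list of 820 predicted precursors (entries) with 676 distinct mature sequences, by taking sequences without such a zebrafish example that occurred in 2 or more entries. This gave 27 sequences at 60 entries on 45 scaffolds, out of 476 sequences without an example. Names given here to listed sequences and precursors are those of the example, which shares only the seed. A name therefore does not tell members of a family apart. The lack of an example does not make a sequence unknown: a known miRNA whose listed 5′ end is shifted by a base has another seed and can be among the 27. Sequences 1, 2, 3, 4 and 8 may be such cases, sequence 1 by a shift of 2 bases. This was not tested against a reference of miRNAs. The label, several precursors per sequence, was checked against the coordinates. Of the 27, 13 lay on different scaffolds at every entry, and 14 had entries that overlapped at 1 locus. Entries on different scaffolds are called copies here. Whether their scaffolds are different places of the genome was not tested.

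The libraries held small RNAs of liver from 12 eels in the yellow stage, in which the fish grow. Of these eels, 6 had been caught in Arcachon Bay, called pristine by the study, and 6 in the Gironde Estuary, called polluted. The counts in the list are not divided by animal and are taken here as pooled over libraries, so the depth of single libraries is unknown and no site comparison is made. All values are single values with no replicates, and intervals are exact binomial (Clopper-Pearson) 95% intervals that cover counting error only.

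The enzyme Drosha frees a hairpin from its transcript, and Dicer then cuts off the loop. Of the resulting duplex, the arm with more reads is usually called mature and the other star, and the arms are named 5p and 3p after their place in the hairpin. Argonaute proteins load 1 arm and find targets mainly through its seed, so a start that moves by a base changes the seed. Teleost fish carry many miRNA genes in several copies, in part from duplications of whole genomes. Inverted repeats, such as those of some transposable elements, can also fold into hairpins, and a symmetric one folds on either strand.

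The sequences were numbered from 1 to 27 by their mature reads, and those the results turn on are shown here with the seed in capitals. No seed was shared, as the 27 sequences had 27 distinct seeds. The first group lay on different scaffolds and held the most reads or the most copies.
Sequence 1: uUUUGCAGaaacguuucagauu
Sequence 2: gUAGUGUUuccuacuuuaugga
Sequence 3: cUAGCACCauuugaaaucgguu
Sequence 4: cUACAGUAuagaugauguacu
Sequence 8: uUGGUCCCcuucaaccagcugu
Sequence 11: uCCAGUGGaggucagaacagc
Sequence 13: aCUUUCGGuuaucuagcuuuau
The second group had overlapping entries at 1 locus.
Sequence 5: uAUUAUACuguaauucccugc
Sequence 6: aCUGGACUccacacuguaucugg
Sequence 7: uCAGUCUCagacucugugcuca
Sequence 9: uGGUGUCUgcuaacugaaaugu
Sequence 10: uGUGGAAUguucagagugg
Sequence 15: uCUGGCCCauagugaacuacu
Lengths of 21 to 23 nt were found in 24 of the 27 sequences. A U began 15 of the 27 (55.6%), against 396 of the 676 sequences of the whole list (58.6%). The share of lengths of 21 to 23 nt in the whole list is not given here.

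Reads were concentrated in the first 4 sequences, all of them on different scaffolds. With each sequence counted once at its highest count, the 27 held 270149 mature reads, or 31.5% of the 857478 mature reads of all sequences without a zebrafish example. With reads summed over entries the share was 48.9%, and the rule for reads that fit several places is unknown here. The 27 held 0.0991% of the 272589277 mature reads of the whole list. Sequence 1 alone held 85.2% of the reads of the 27, and the first 4 held 98.3%. The fifth had 690 reads, the median was 151 reads and the lowest value 5 reads. The median was 36 reads for the 449 sequences without an example at 1 entry, and 14012 reads for the 77 seed-matched sequences, those with a zebrafish example, at several entries.

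**Figure D1:**
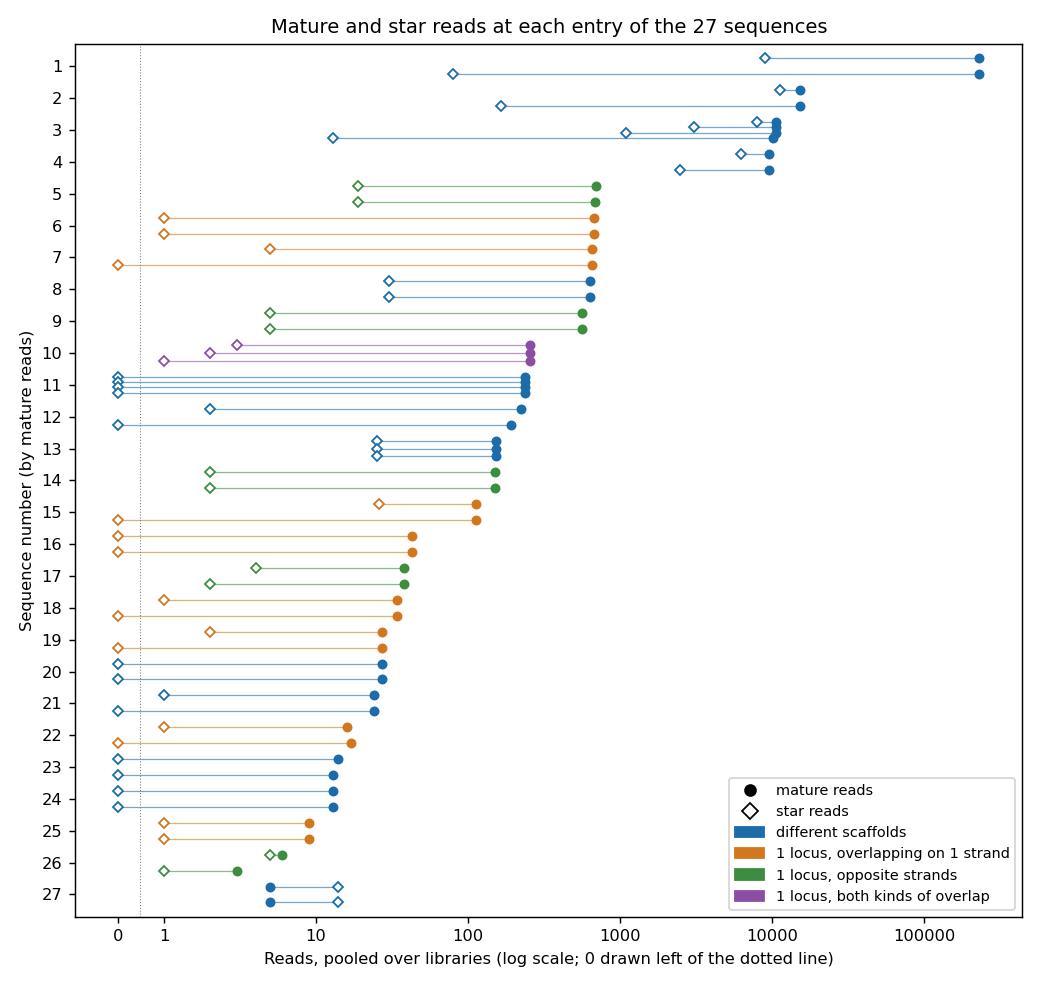
Mature reads (filled circles) and star reads (open diamonds) at each of the 60 entries, on a log axis of reads pooled over libraries, with 1 row per sequence and colours for the layout of its entries. Mature counts of a sequence lie within 10% of each other at its entries except for sequences 12 and 26, while star counts of sequences 1 to 4 are spread widely.

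The mature counts of copies were equal or nearly so. In 10 of the 13 sequences on different scaffolds they were equal at every entry. Over all 27 sequences, 19 had equal counts at every entry, and in 25 the counts lay within 10% of the highest. The exceptions were sequence 12, on different scaffolds, with 223 and 192 reads, and sequence 26, at 1 locus, with 6 and 3 reads. In 14 of the 27 the entries overlapped at 1 locus. In 6 of these all entries held the same mature site, so near-equal counts there say nothing about copies. The mature reads of copies are therefore not separated in this list, and the reads of 1 copy cannot be read from them. Among the 77 seed-matched sequences at several entries, 39 had equal counts and 73 lay within 10%.

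Star counts did differ between copies of sequences 1, 2, 3 and 4, whose star sequences differed as well. Between entries of a sequence on different scaffolds, 11 pairs had identical star sequences, and their star counts were equal in 11 of 11. In 6 of those pairs, all of sequence 11, both counts were 0, which leaves 5 pairs with star reads. Of 14 pairs with different star sequences, 11 had star reads at 1 or both entries, and the counts were equal in 0 of these 11. The remaining 3 pairs, of sequences 20, 23 and 24, had 0 star reads at both entries. Among the 11, the pair of sequence 12 had 2 and 0 star reads and that of sequence 21 had 1 and 0. A count of 0 allows up to 3 reads, so these pairs do not show a difference. The contrast thus rests on the pairs of sequences 1, 2, 3 and 4. The pairs of sequence 3 and of sequence 13 are not independent, since several entries of 1 sequence are paired with each other.

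Sequence 1 had a strong and a weak star arm. It was listed on scaffold 33499 (1022 to 1088, plus strand) with 230207 mature and 8980 star reads, and on scaffold 6062 (11341 to 11405, plus strand) with 230207 mature and 80 star reads. The star arm thus made up 3.75% (interval 3.68% to 3.83%) of mature plus star reads at the first locus. At the other it made up 0.0347% (interval 0.0276% to 0.0432%). These star shares, and those given below, use mature reads that are not separated between copies. They are therefore not arm ratios of single copies. The 2 precursors are printed with the mature sequence in capitals, to show that they differ mainly in the star arm: the star arms were 4 edits (bases changed, added or lost) apart and the precursors 6.
Scaffold 33499: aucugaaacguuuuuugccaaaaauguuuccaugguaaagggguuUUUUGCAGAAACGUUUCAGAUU
Scaffold 6062: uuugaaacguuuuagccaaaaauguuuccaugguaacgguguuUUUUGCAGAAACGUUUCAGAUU
Both precursors carry further U bases just before the mature sequence. With a start moved 2 bases upstream, the seed would be UUUUUGC, which the list assigns to miR-722. The listed eel sequence with miR-722 as its example shares a run of only 6 bases with sequence 1 and differs by 13 edits. That eel sequence shares only the seed with its example. Sequence 1 was not compared with miR-722 itself, so whether it is a shifted miR-722 was not tested. On scaffold 6062 another precursor without a zebrafish example lay upstream on the same strand, with a gap of 1570 nt, 681 mature reads and 9 star reads.

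Sequence 2 had the entry with the most star reads of the 27 sequences, at a very low score. The miRDeep2 score is a log-odds score for a true precursor. Its locus on scaffold 25616 (75 to 136, plus strand) had 15152 mature and 11297 star reads, and that on scaffold 6643 (17644 to 17705, minus strand) had 15152 and 165. The star share was 42.7% (interval 42.1% to 43.3%) at the first locus and 1.08% (interval 0.920% to 1.25%) at the second. The star arms differed by 3 edits. The scores were 0.3 and 0.4, against 121943.0 and 117405.4 for the entries of sequence 1. At the same place on scaffold 25616 a hairpin was also listed on the minus strand, with 41 mature and 29 star reads. Its mature sequence, gUAGUGCUuucuacuuuaugga, was 2 edits from sequence 2, and its star arm shared a run of 20 bases with the reverse complement of sequence 2.

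Sequence 3 was the one with 4 loci and star reads at each of them. Its mature counts were 10629 on scaffold 5821 (38492 to 38550, minus strand), 10629 on scaffold 1343 (144406 to 144464, minus strand), 10644 on scaffold 1650 (1913 to 1971, minus strand) and 10045 on scaffold 124 (199851 to 199910, plus strand). The star counts were 7922, 3041, 1088 and 13 in the same order, so the copies differed in star counts but hardly in mature counts. The star shares were 42.7% (interval 42.0% to 43.4%), 22.2% (interval 21.6% to 22.95%), 9.27% (interval 8.75% to 9.81%) and 0.129% (interval 0.0688% to 0.221%). No interval overlaps another, but the mature reads in them are not separated by copy. The star arms are printed because they tell the copies apart; capitals mark bases that differ from the copy on scaffold 5821.
Scaffold 5821: acugauuucuguuggugcguaga
Scaffold 1343: acugauuucuUCuggugcAuaga
Scaffold 1650: acCgauuucuUCuggugUUCaga
Scaffold 124: acCgauuucCUCuggugUUCaga
The star arms of scaffolds 1650 and 124 differ by 1 edit, yet had 1088 and 13 reads.

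The neighbours of sequence 3 were hairpins listed with miR-29a as the example of the same seed. miR-29 is known in mammals for repressing collagen and other matrix genes in liver stellate cells. A precursor with that example lay upstream on the same strand at 3 of the 4 loci. The gaps were 384 nt on scaffold 5821, 355 nt on scaffold 1343 and 194 nt on scaffold 1650. Which miR-29 member these neighbours are was not tested. Those neighbours had 434, 807 and 807 mature reads, fewer than the 10629, 10629 and 10644 of sequence 3, and 736, 123 and 73 star reads. No listed precursor lay within 50 kb of the copy on scaffold 124. Started 1 base later, sequence 3 would carry the seed AGCACCA that the list assigns to miR-29a. It shares a run of 17 bases with the listed sequence uAGCACCAuuugaaaucagu. The same run of 17 bases also occurred in the star arm of another hairpin without a zebrafish example, on scaffold 14439 (3675 to 3740, minus strand), which had 981 mature reads and 808 star reads.

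Sequence 4 lay just upstream of miR-451 at both of its loci. miR-451 is known from maturing red blood cells, and in zebrafish and mammals it is transcribed together with miR-144; the list gives sequence 4 no name. On scaffold 2248 (40347 to 40403, plus strand) it had 9550 mature and 6246 star reads, with miR-451 downstream after a gap of 75 nt. The locus on scaffold 1219 (38456 to 38513, minus strand) had 9550 and 2464 reads, with miR-451 downstream after 98 nt. The star share was 39.5% (interval 38.8% to 40.3%) at the first locus and 20.5% (interval 19.8% to 21.2%) at the other, and the star arms differed by 6 edits. The miR-451 neighbours had 98555 and 325845 mature reads, so the locus with more star reads of sequence 4 had the neighbour with fewer reads. The mature sequences of these neighbours differ only in the last base. The rule for reads that fit several places is unknown, so their counts may not be separated by locus. A run of 14 bases of the reverse complement of sequence 4 occurred in an unnamed mature sequence on scaffold 52 with 399 reads.

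**Figure D2:**
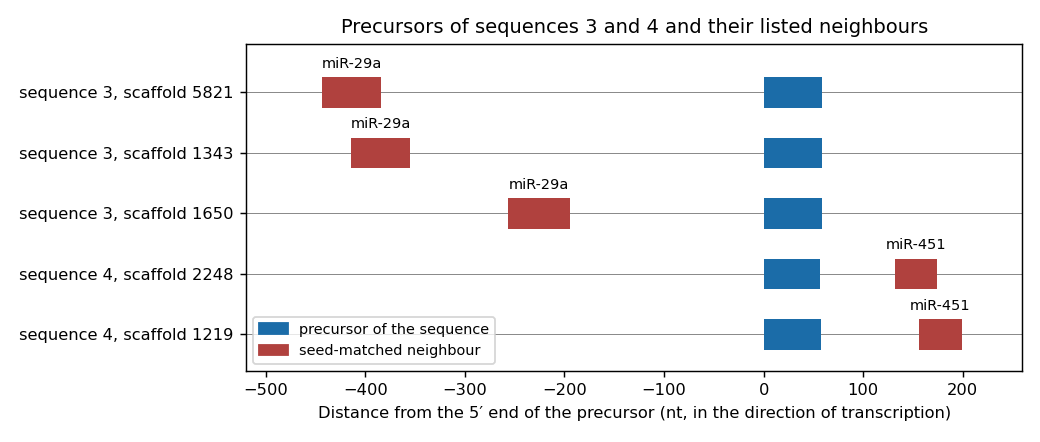
Precursors of sequences 3 and 4 (blue) and their seed-matched neighbours (red), placed in nt from the 5′ end of the precursor in the direction of transcription. A precursor listed with miR-29a lies upstream of sequence 3 at 3 loci, and one listed with miR-451 lies downstream of sequence 4 at both loci. Names are those of the example with the same seed.

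Sequence 8 was found near miR-1, a miRNA of heart and skeletal muscle, at both of its loci. miR-1 is transcribed with miR-133 in vertebrates; the list gives sequence 8 no name. It had 633 mature and 30 star reads at each locus, on scaffold 511 (171526 to 171585, plus strand) and scaffold 7605 (13540 to 13599, minus strand). Star arms were identical and the precursors were 2 edits apart, so neither arm separates the copies. miR-1 lay upstream on the same strand, after 12971 nt on scaffold 511 with 14818 mature reads and after 2938 nt on scaffold 7605 with 15475. The reads of sequence 8 were thus far fewer than those of the miR-1 entries beside it.

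No other sequence had a neighbour within 10 kb. Within 10 kb on the same strand, 7 of the 60 entries (11.7%, interval 4.82% to 22.6%) had another precursor that did not overlap, and in 6 of the 7 it was seed-matched. These 7 were the entries of sequences 1, 3, 4 and 8 given above, except the miR-1 neighbour on scaffold 511, which lay beyond 10 kb. Within 50 kb, sequence 5 on the minus strand of scaffold 1087 also had one, a miR-148 precursor upstream after a gap of 35412 nt. Among entries without an example listed once, 19 of 449 (4.23%, interval 2.57% to 6.53%) had a neighbour, and among seed-matched entries 108 of 311 (34.7%, interval 29.4% to 40.3%). These entries share scaffolds and clusters, so they are not independent, and no test was made.

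Sequences 11 and 13 had copies that neither arm separates. Sequence 13 had 152 mature and 25 star reads at each of its 3 loci, on scaffolds 672, 5076 and 6503, all on the plus strand, with scores from 88.7 to 89.1. Its star arms were identical and its precursors, 6 or 7 edits apart, differ in the loop, as printed here with the mature sequence in capitals.
Scaffold 672: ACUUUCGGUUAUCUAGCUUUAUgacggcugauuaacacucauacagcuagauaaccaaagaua
Scaffold 5076: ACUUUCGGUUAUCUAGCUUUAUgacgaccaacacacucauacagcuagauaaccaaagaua
Scaffold 6503: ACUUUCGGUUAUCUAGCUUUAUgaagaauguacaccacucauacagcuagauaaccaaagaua
Sequence 13 was 4 edits from the most similar named sequence, that of miR-9-5p (ucuuugguuaucuagcuguaug), and was listed on the 5p arm. Those edits were counted on the mature sequence only and in the same direction. The reverse complement of its star arm, uacagcuagauaaccaaagaua, holds all of that miR-9-5p sequence except its last bases. Whether these entries are miR-9 hairpins listed on the opposite strand was not tested. Sequence 11 had 238 mature and 0 star reads at each of its 4 loci, on scaffolds 45229, 234521, 267801 and 357586, and its precursors were identical over all 51 nt. A count of 0 allows up to 3 star reads. Its scores ran from 0.1 to 0.3.

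The other 6 sequences on different scaffolds had between 5 and 223 mature reads. Sequence 27 was the only one of the 27 sequences with more star than mature reads, 14 against 5 at both of its entries. Sequences 12 and 20 belong to a group of related sequences that share the run AUUAGUAGAAUC, the longest that the pair has in common. The group was picked after it had been seen. That run occurred, in this direction, in the mature sequence of 6 of 820 entries (0.732%), which had 4 distinct mature sequences. Of these 6 entries, 4 were those of sequences 12 and 20, which lack a zebrafish example by the rule of choice. That 0 of the 6 were seed-matched was thus mostly fixed in advance. The whole list held 311 seed-matched entries. Sequence 12 had 223 mature and 2 star reads on scaffold 296537, with a score of 114.9, and 192 mature and 0 star reads on scaffold 7010, with a score of 0.6. It was contained whole in another sequence of the group, uGAUUAGUagaaucaggugugu, with 332 reads. Sequence 20 had 27 mature and 0 star reads at both entries. Sequences 21 and 23 had 24 and 14 mature reads and were listed on different arms on their 2 scaffolds, and sequence 24 had 13. On scaffolds 445178 (sequence 21) and 182814 (sequence 23), the star sequence holds the end of the mature sequence itself, as in a repeat. Whether the arm differs between these copies was not tested.

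In the 14 single-locus sequences the entries were overlapping predictions on 1 stretch of genome. In 8 of them the entries overlapped on 1 strand, in 5 they lay on opposite strands, and sequence 10 had both. Of the 77 seed-matched sequences at several entries, 56 had all entries on different scaffolds (72.7%, against 48.1% of the 27), 19 had an overlap on 1 strand and 0 had one on opposite strands. Whether these layouts differ between the classes was not tested.

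**Figure D3:**
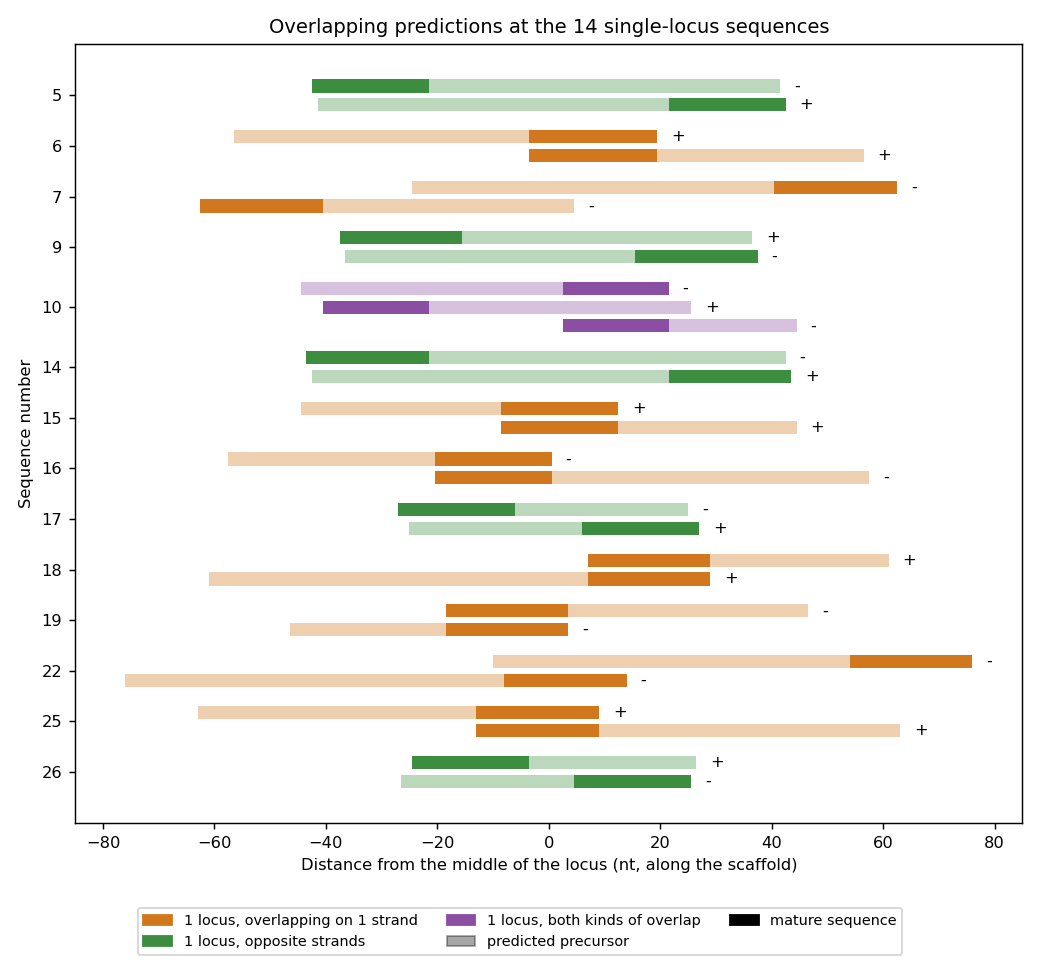
Predicted precursors (light bars) and mature sequences (dark bars) of the 14 single-locus sequences, in nt from the middle of the locus along the scaffold, with the strand at the right. In 5 rows of bars in green and 1 in purple the mature sequence lies at opposite ends on the plus and minus strand, and in most orange rows 1 mature site is shared by a precursor on its left and one on its right.

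Overlaps on 1 strand mostly gave the same mature site a partner on either side. There were 9 such pairs of entries with starts 28 to 68 nt apart, and in 7 of them, from 7 sequences, the mature sequence lay at the same position. In 7 of these 7 it was the 3p arm of one prediction and the 5p arm of the other. For sequence 15 on scaffold 19262, star reads were seen with 1 partner only. The prediction from 4285 to 4341 had 112 mature and 26 star reads and a score of 70.4, and that from 4321 to 4373 had 112 mature and 0 star reads and a score of 0. The predictions are printed with the shared mature sequence in capitals.
From 4285: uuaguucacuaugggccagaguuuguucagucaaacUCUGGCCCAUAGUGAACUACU
From 4321: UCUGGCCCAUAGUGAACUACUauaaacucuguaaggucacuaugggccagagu
The star arms on the 2 sides were 2 edits apart. Sequence 6 on scaffold 485964 had 669 and 668 mature reads and 1 star read at each prediction. The predictions ran from 143 to 218 and from 196 to 255 on the plus strand, with scores of 336.7 and 336.2. The star sequence of sequence 6 was identical at both, so these star reads can be the same read. It lay on both sides of the mature sequence, so this locus also holds a repeat. Of the 23 mature bases, 11 were paired in the first prediction and 15 in the second. Sequences 16, 18, 19 and 25 had between 9 and 43 mature reads and at most 2 star reads. In sequence 25 the star sequence was likewise identical on both sides of the mature site.

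In 2 other sequences the overlapping predictions held separate mature sites in a tandem repeat. Sequence 7 on scaffold 14077 (2905 to 2991 and 2867 to 2933, minus strand) had 652 mature and 5 star reads at the first prediction and 650 mature and 0 star reads at the second, and both scores were 0. Sequence 22 on scaffold 2590 had 16 and 17 mature reads, and the first of its precursors held the mature sequence 3 times, as printed here with its listed copy in capitals.
Scaffold 2590, from 44848: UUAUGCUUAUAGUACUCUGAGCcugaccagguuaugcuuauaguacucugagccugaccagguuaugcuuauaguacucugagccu

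Sequences on opposite strands came from inverted repeats so symmetric that the same mature sequence was listed on the plus and the minus strand. In 6 of the 7 pairs of entries on opposite strands, the starts lay at most 4 nt apart. Sequence 5 on scaffold 1087 had 690 mature reads on the minus strand (168322 to 168405) and 685 on the plus strand (168323 to 168406), with 19 star reads on each. Its precursors were identical on the 2 strands. Each holds 1 unread base, printed as n, at its middle; the mature sequence is in capitals.
Scaffold 1087: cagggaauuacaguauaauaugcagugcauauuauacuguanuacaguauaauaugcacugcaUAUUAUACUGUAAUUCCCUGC
Sequence 9 on scaffold 1434 (35039 to 35112, plus strand, and 35040 to 35113, minus strand) had 564 mature and 5 star reads on each strand. Sequence 14 had 151 mature and 2 star reads on each strand of scaffold 9956. Reads of these sequences fit either strand, so the strand they came from cannot be told apart.

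Shorter or less even inverted repeats made up the rest. Sequence 17 on scaffold 6545 had 38 mature reads on each strand, with 4 star reads on the minus strand (8663 to 8714) and 2 on the plus strand (8665 to 8716). Its precursors differ in the loop and at the end of the star arm, as printed with the mature sequence in capitals.
Minus strand: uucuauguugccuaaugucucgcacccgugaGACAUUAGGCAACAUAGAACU
Plus strand: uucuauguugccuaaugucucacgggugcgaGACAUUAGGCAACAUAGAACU
Sequence 26 had 6 mature and 5 star reads on the plus strand and 3 mature and 1 star read on the minus strand of scaffold 602. Sequence 10 on scaffold 120 had 255 mature reads at each of 3 predictions. The pair on opposite strands (285889 to 285954, minus, and 285893 to 285958, plus) had 3 and 2 star reads, and a shorter one on the minus strand (285936 to 285977) had 1. Started 2 bases later, sequence 10 would carry the miR-1 seed GGAAUGU. It shares a run of only 8 bases with the listed eel sequence of that seed.

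Predicted folding energies differed in median between the layouts but their ranges overlapped, and no test was made. The program RNAfold gave a minimum free energy with a median of -38.8 kcal/mol for the 10 entries of the 5 sequences on opposite strands (range -64.8 to -24.1), with 19 to 21 mature bases paired. For the 31 entries on different scaffolds the median was -24.3 kcal/mol (range -34.2 to -15.3), with 14 to 21 mature bases paired. For the 16 entries overlapping on 1 strand it was -28.5 kcal/mol (range -44.3 to -14.3), with 11 to 19 paired. Longer precursors can reach lower energies, and the median lengths were 74, 60 and 69.5 nt in the same order. On opposite strands the same mature sequence is listed on both strands of 1 stretch, so its reverse complement lies in the same hairpin. High pairing of the mature bases there follows from the layout. The 10 entries are also only 5 stretches, each folded from both strands.

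**Figure D4:**
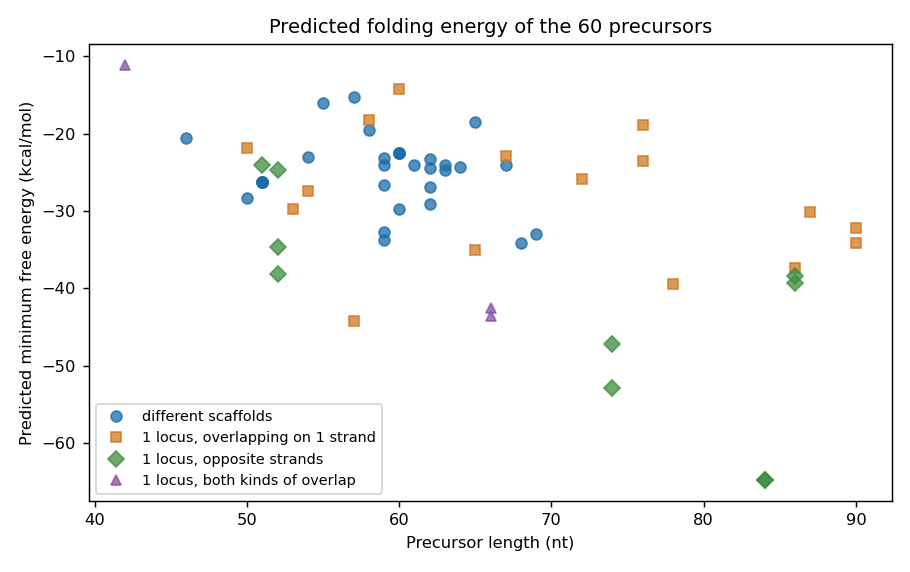
Predicted minimum free energy in kcal/mol against precursor length in nt for the 60 precursors, with marker and colour by layout; identical precursors lie on top of each other. Precursors on different scaffolds lie between -34.2 and -15.3 kcal/mol, and those on opposite strands reach -64.8.

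Star reads were seen at 41 of the 60 entries. By sequence, 22 of 27 had star reads at 1 or more entries (81.5%, interval 61.9% to 93.7%), and 15 had them at every entry. For sequences without an example listed once the share was 282 of 449 (62.8%, interval 58.2% to 67.3%), and for seed-matched sequences at several entries 65 of 77 (84.4%, interval 74.4% to 91.7%). Sequences with several entries have more chances to show a star read. So do sequences with more reads: the median mature count was 151 for the 27 and 36 for those without an example listed once. For the seed-matched sequences at several entries it was 14012. Judged by the entry with the most mature reads, 21 of the 27 (77.8%) had star reads. The 5 sequences with 0 star reads were sequences 11, 16, 20, 23 and 24, with 13 to 238 mature reads. At least 10 star reads were seen for 7 of the 13 sequences on different scaffolds, 1 of the 8 overlapping on 1 strand and 1 of the 5 on opposite strands. These were sequences 1, 2, 3, 4, 8, 13 and 27, then 15, then 5.

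The arm of the entries described here was 3p more often than 5p. Arm shares of the whole list and of the other classes are not given here. Whether the excess of 3p is particular to these entries was therefore not tested. The arm is the place of the listed mature sequence in its precursor, not the arm with more reads. Both entries of sequence 27 are thus 3p, though the 5p arm had 14 reads against 5. The arm was called in 59 entries, those with 10 or more reads on both arms together, as 3p in 40 and 5p in 19. These counts hold overlapping predictions of 1 mature site on both arms. With overlapping predictions counted once, at the entry with more star reads, 12 of 45 were 5p. At equal star reads the entry with the lower start was taken, as for sequence 16. For 10 of the 13 sequences on different scaffolds the listed arm was 3p at every entry, and for sequence 13 it was 5p. For sequences 21 and 23 the listed arm differed between scaffolds. The arm was the same in 23 of the 25 pairs of entries on different scaffolds.

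Moving the start by 1 or 2 bases gave a listed seed to 4 of the 27 sequences (14.8%) and to 14 of the 449 without an example listed once (3.12%). The 4 were sequences 1, 3, 4 and 10. Sequence 4 would take the seed CUACAGU of miR-139-5p. It shares a run of 7 bases with the listed eel sequence of that seed. Beyond the seed, a long run shared with the listed eel sequence was found for sequence 3 alone of these 4. The listed eel sequences share only the seed with the miRNA named. The 4 were not compared with the named miRNAs themselves, so the runs do not set sequence 3 apart. Only seeds that the list assigns to a name were searched. A known miRNA that the list does not name could therefore not be found, for sequence 4 or any other.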

How the data were processed

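Small RNA libraries came from 12 eel livers, 6 per site. Base calls were converted with bcl2fastq 2.17.1.14, per the submitters' processing notes. The authors deposited 1 table of miRDeep2 predictions, per the file headers, with mature, star, loop and total read counts as whole numbers without normalization, and with the miRDeep2 score. The total equalled the sum of its parts in 820 entries. Not given in the sources used here are the aligner, its mismatches, the miRDeep2 version, the build name and the rule for reads that fit several places, which decides whether copies share reads. Scaffolds are those of the list, and 1 was added to the listed starts. No column names a sample, so the planned count test between sites was not analysed here.

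The members and lists were chosen with earlier results of these data known. Entries of a sequence were compared by overlap, mature position, strand, arm and edit distance. Arms were called from the place of the listed mature sequence, at entries with at least 10 mature plus star reads. Neighbours were non-overlapping entries on the same strand with starts within 10 kb. Edit distances, shared runs of at least 13 bases, moved starts and RNAfold 2.7.2 energies were added. The functions were tested on simulated data. The rule for named sequences took the 10 with the most mature reads, those at 3 or more loci, the 3 with the most star reads, the 3 with the highest scores, up to 6 with overlapping entries and those with a neighbour; others were named after their values had been seen. Alternatives were score, read and distance limits and other ways to count copies. Python 3.11.15, pandas 2.3.3, numpy 2.4.6, scipy 1.17.1 and matplotlib 3.10.9 were used.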

Additional observations from a re-analysis of the deposited data

Results flagged for a closer look

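Loop reads entered no comparison. Sequence 7 had 52 loop reads at its entry from 2905 to 2991 on scaffold 14077, above the 3 reads that a count of 0 allows, beside 652 mature and 5 star reads. Its other entry had 3 loop reads. The precursor is a tandem repeat, and the part of that in the loop reads was not tested. Of the other 58 entries, 3 had 1 or 2 loop reads and 55 had 0.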

How the results depend on the processing

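With scores of at least 1, 4 and 10 required, 12, 11 and 11 of the 27 sequences were left, since entries below the limit were dropped. Of the 13 sequences on different scaffolds, 5 were left with scores of at least 4. Their number fell to 7 with a star read required at each entry, and to 8 with at least 100 mature reads. Sequences with star reads fell from 22 to 9 with at least 10 star reads required, and 14 of them had at least 100 mature reads. Entries on the 5p arm fell from 19 to 12 of 45 when overlapping predictions were counted once. The share of reads of sequences without an example was 48.9% with reads summed over entries and 33.1% by total reads. A moved start gave a listed seed to 2 sequences when it moved by 1 base only. The limits of 100 mature reads and of 1 base were chosen after seeing the data. The other 10 settings stayed within 1.5 times the value reported. No paired analysis was possible because the counts are not divided by animal. Counts under 10 reads, as in sequences 25, 26 and 27, rank nothing.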
